A study of Mus musculus with 16 samples.

Results

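The piRNA pathway genes described here are 10 genes chosen by name: Piwil2, Piwil4, Ddx4, Mael, Mov10l1, Tdrd1, Tdrd5, Tdrd9, Asz1 and Gtsf1. Of the 27128 genes in each deposited table, 9 of the 10 were listed under these symbols, and Gtsf1 was listed under its older name 1700006H03Rik, which RefSeq gives as a synonym of Gtsf1 and of no other gene. The transcript behind that row was not among those RefSeq now lists for Gtsf1, so its values are less certain. Expression was measured by RNA sequencing of germline stem cells (GSCs) from male mice kept in culture, the counterpart of the stem cells of spermatogenesis. All cultures came from Oct4-GFP-positive, KIT-negative germ cells of B6;CBA-Tg(Pou5f1-EGFP)2Mnn/J mice at postnatal day 5.5, in which GFP is driven by the promoter of Pou5f1 (Oct4), and all received GDNF, bFGF and EGF in a medium without serum.

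The 12 RNA libraries belong to 4 experiments with 1 library per condition. The feeder-removal experiment had cells on mouse embryonic fibroblast (MEF) feeders (day 0) and cells moved to Matrigel, a basement membrane extract, for 4 or 9 days (day 4, day 9). The density experiment compared cells called epithelial-like, on Matrigel at 0.1 µg/cm2, with cells called mesenchymal-like, at 10 µg/cm2. The sorted experiment split cells from Matrigel at 10 µg/cm2 by their GFP signal into a low, a mid and a high fraction (GFP-low, GFP-mid, GFP-high). The inhibitor experiment had cells on MEF with the solvent DMSO or with UNC0638 for 48 hours at 0.5, 1 or 2 µM. This compound blocks the histone H3 lysine methyltransferase G9a and its partner GLP. MEF feeders are living cells that can leave RNA in a library, and the number of animals and cultures behind a library was not given in the sources used here. The labels do not say how long DMSO was given. With 1 library per group no difference below has a replicate check and none carries a p-value. Intervals are 95% counting intervals and do not cover differences between cultures or between library preparations.

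piRNAs are small RNAs bound by PIWI proteins, and in the male germ line they silence transposons by cleaving their transcripts and by directing DNA methylation to them. Long precursor transcripts are selected by the helicase MOV10L1, cut at the outer mitochondrial membrane, loaded into PIWI proteins and amplified in perinuclear granules called nuage, where Tudor-domain proteins bind methylated arginines of the PIWI proteins. PIWIL2 (MILI) is cytoplasmic and works in fetal germ cells and spermatogonia, while PIWIL4 (MIWI2) is nuclear and is best known from the fetal period, when transposon promoters are methylated.

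Promoters are shown because the members tended to be high and low in the same libraries. RefSeq (GRCm38.p6, the assembly behind the build mm10 named in the submitters' processing notes) gave promoter entries for 9 of the 10 members, 12 promoters in all, and the 250 bases before each start were searched on both strands for 4 motifs that were chosen after the sequences had been seen. The E-box CACGTG was present for 5 members (Ddx4, Mael, Mov10l1, Tdrd1 and Tdrd9) and in 6.02% of 32851 promoters of that length. The palindrome TGCGCA, the core of sites of the factor NRF1, was present for 5 members (Piwil4, Tdrd1, Tdrd5, Asz1 and Gtsf1) and in 6.43% of promoters. All 9 members with an entry had CACGTG or TGCGCA in at least 1 of their promoters (10 of the 12), and 11.9% of all promoters had either. Both palindromes contain CG, and the 10 promoters with a match held 7 to 40 CG against a median of 6 over all promoters, so the shares are not from promoters of like base composition. The first 2 entries of Tdrd1 overlap and share an E-box. CCAAT occurred for 4 members and in 33.8% of promoters, and GCGGGAA, an E2F-type sequence, for 2 members and in 3.82%. These matches are descriptions of letters, not of bound sites. The following sequences, which show where both palindromes lie, run 5′ to 3′ on the gene's strand, are cut where RefSeq places any transcript of the gene, and carry CACGTG and TGCGCA in capitals. Of the members with an E-box, those shown are Mael (chr1:166238745-166238994, minus strand), Mov10l1 (chr15:88982744-88982890, plus strand) and Tdrd9 (chr12:111971309-111971487, plus strand), and of those with TGCGCA and no E-box, Piwil4 (chr9:14740673-14740922, minus strand) and Asz1 (chr6:18109062-18109311, minus strand) are shown.
Mael: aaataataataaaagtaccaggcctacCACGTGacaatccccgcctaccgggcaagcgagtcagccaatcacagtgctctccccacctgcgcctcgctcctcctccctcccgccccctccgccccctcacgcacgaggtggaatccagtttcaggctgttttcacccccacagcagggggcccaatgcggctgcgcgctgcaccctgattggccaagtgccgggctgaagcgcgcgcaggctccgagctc
Mov10l1: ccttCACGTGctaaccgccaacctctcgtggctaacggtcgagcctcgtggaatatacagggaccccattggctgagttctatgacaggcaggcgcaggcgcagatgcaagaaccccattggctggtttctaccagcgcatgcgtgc
Tdrd9: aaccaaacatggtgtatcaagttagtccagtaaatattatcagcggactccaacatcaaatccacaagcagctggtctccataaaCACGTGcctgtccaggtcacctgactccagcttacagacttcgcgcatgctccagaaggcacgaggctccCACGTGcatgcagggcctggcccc
Piwil4: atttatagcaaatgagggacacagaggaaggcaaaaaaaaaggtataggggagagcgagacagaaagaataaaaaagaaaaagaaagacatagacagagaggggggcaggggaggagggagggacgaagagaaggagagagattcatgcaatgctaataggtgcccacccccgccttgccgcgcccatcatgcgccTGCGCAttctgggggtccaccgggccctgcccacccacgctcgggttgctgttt
Asz1: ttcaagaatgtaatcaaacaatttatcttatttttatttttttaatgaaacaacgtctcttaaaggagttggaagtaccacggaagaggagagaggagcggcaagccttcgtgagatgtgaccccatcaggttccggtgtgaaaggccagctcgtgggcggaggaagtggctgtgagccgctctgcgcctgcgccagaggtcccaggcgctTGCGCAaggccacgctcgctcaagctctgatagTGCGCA
Tdrd9 carried 2 E-boxes, beginning 165 and 95 bases before the start. The E-box began 223 bases before the start in Mael and 246 in Mov10l1, and TGCGCA began 54 bases before it in Piwil4 and 39 and 6 in Asz1.

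Libraries held 4335185 to 12019651 counts. Germ-cell identity was checked on 12 germ-cell genes, such as Dazl and Sall4, that were not on the lists of piRNA pathway genes used here. All 12 had more than 3 counts in every library. Their summed level was 4148 to 5513 CPM (read counts relative to the library's total, scaled by TMM). Markers of Sertoli and Leydig cells summed to 10.5 to 36.0 CPM, with Cyp17a1 and Hsd3b1 at 0 counts in every library. The 20 fibroblast markers summed to 320 to 588 CPM in 7 libraries but to 12786 CPM in the mesenchymal-like library, 4481 CPM with DMSO and 812 to 1798 CPM with UNC0638. The 10 myeloid markers summed to 1793, 1585 and 212 CPM from the low to the high GFP fraction and to 8.09 to 42.5 CPM elsewhere. The 9 markers of differentiating and meiotic germ cells, of which 8 or 9 had more than 3 counts in each library, summed to 403 to 907 CPM.

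All 10 members passed the filter (mean over libraries of 1 CPM or more), as did 14301 of all genes, and the deposited expected count of each was a whole number in every library, within 1e-06. Levels were compared between members by the deposited TPM, which corrects for transcript length. Mael, an HMG-box protein of nuage needed for transposon silencing (chr1:166201385-166238744), was highest of the members in every library, at 408 to 878 TPM. Ddx4 (mouse vasa homologue), the DEAD-box helicase that marks germ cells (chr13:112598333-112652633), ranked 2 or 3, at 225 to 588 TPM. Gtsf1, a zinc-finger cofactor of PIWI cleavage (chr15:103402458-103430445), was at 187 to 523 TPM and ranked 2 to 4.

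The next 3 members changed places from library to library. Piwil2 (chr14:70372477-70436898) was at 114 to 311 TPM and ranked 4 to 6. Mov10l1 (chr15:88982891-89055152) was at 117 to 323 TPM and ranked 3 to 5. Asz1 (GASZ), a scaffold anchored in the outer mitochondrial membrane (chr6:18050964-18109061), was at 105 to 269.7 TPM and ranked 4 to 6. The Tudor-domain members kept a fixed order below these. Tdrd5, which also carries LOTUS domains (chr1:156255296-156304304), was at 55.9 to 128 TPM and ranked 7 in all libraries. Tdrd1, which binds PIWIL2 (chr19:56826171-56870012), was at 46.6 to 107 TPM and ranked 8. Tdrd9, a helicase with a Tudor domain that works with PIWIL4 (chr12:111971488-112068854), was at 34.8 to 89.8 TPM and ranked 9.

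Piwil4 (chr9:14701776-14740672) was lowest in all 12 libraries, at 4.53 to 19.3 TPM. Its counts ran from 33 in each library of the density experiment to 334 at day 9, so its intervals are the widest of the 10. The rows of Tdrd5, Tdrd9 and Gtsf1 rest on predicted transcript models, and their TPM depends on the lengths of those models.

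**Figure D1:**
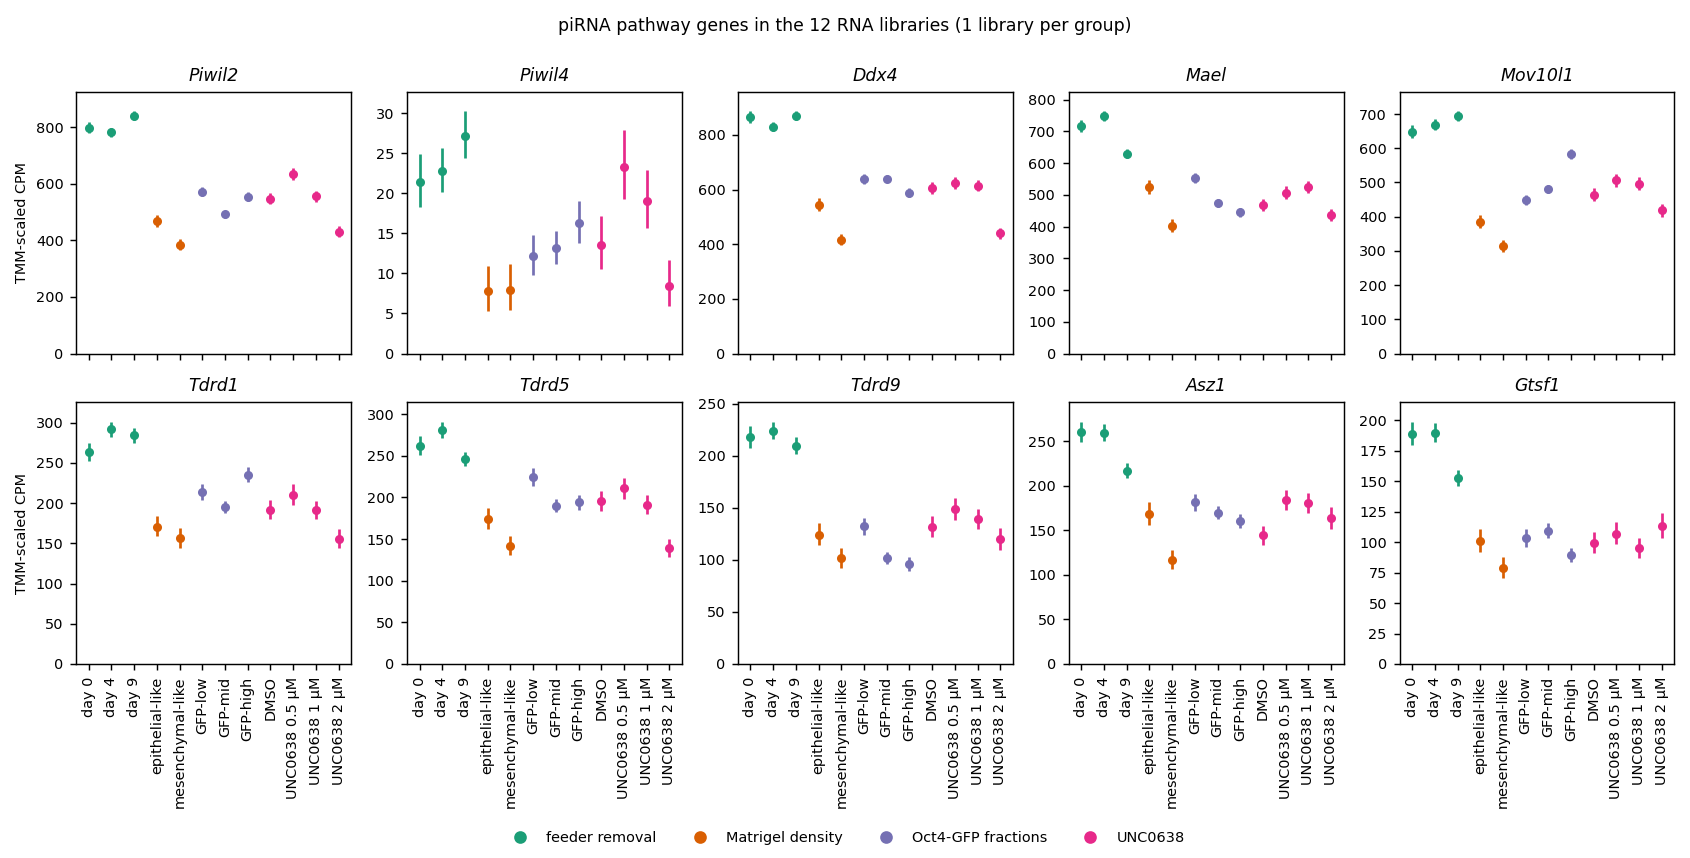
TMM-scaled CPM (linear axis from 0) of the 10 members in the 12 RNA libraries, 1 point per library, with exact Poisson 95% intervals as bars and colours for the 4 experiments. The 3 feeder-removal libraries lie above the other 9 for every member except Piwil4, which was at 23.3 CPM with 0.5 µM UNC0638.

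Across all 12 libraries the highest CPM of a member was 1.86 to 3.51 times its lowest, and the extremes were 3.51-fold for Piwil4 and 1.86-fold for Mael. On the log2(CPM + 1) scale the members' range had a median of 1.13, against 1.29 over all tested genes. When each member's libraries were put in order, Piwil4 had overlapping intervals between all 11 pairs of neighbours, and the other members between 6 and 9 of the 11. The mesenchymal-like library was the lowest of the 12 for 6 members (Piwil2, Ddx4, Mael, Mov10l1, Asz1 and Gtsf1), against 12.9% of all tested genes. It was also the lowest for 11 of 22 other piRNA pathway genes that passed the filter and for 4 of the 12 germ-cell genes above.

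Within the feeder-removal experiment the members stayed close to their day 0 levels. A member was called changed at a log2 ratio of (CPM + 1) of at least 1, that is 2-fold. Members' means were 16.1 CPM (Piwil4) or higher, so the share among genes with a mean of 10 CPM or more is given beside that of all genes. At day 4 none of the 10 was called, against 2.28% of all tested genes and 0.302% of those at 10 CPM or more, and the log2 ratios lay between -0.06 and 0.15 with a median of 0.04 (0.03 over all genes). At day 9 none was called either, against 2.60% of genes (0.875% at 10 CPM or more), with log2 ratios from -0.31 to 0.33 and a median of -0.02 (0.02 over all genes), which became 0.10 with the deposited TPM. Counting intervals lay above 0 for 3 members and below 0 for 1 at day 4, and above for 4 and below for 4 at day 9. The share of all genes with such intervals was not computed, here or below.

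Among the PIWI genes, Piwil2 was at 798, 782 and 840 CPM at days 0, 4 and 9. Piwil4 was at 21.4, 22.8 and 27.2 CPM (log2 ratio 0.33 at day 9, interval 0.07 to 0.62). Both were highest at day 9, though the Piwil4 interval of day 9 (24.3 to 30.2 CPM) overlapped those of day 0 (18.3 to 24.9) and day 4 (20.1 to 25.7). Ddx4 was at 865, 829 and 870 CPM and showed the smallest difference at day 9 (0.01, -0.03 to 0.05). The lowest log2 ratios at day 9 belonged to 3 genes that stayed level to day 4 or were slightly higher there. Gtsf1 was at 189, 190 and 153 CPM (-0.31, -0.41 to -0.21). Asz1 was at 260, 260 and 217 CPM (-0.26, -0.35 to -0.18). Mael was at 715, 748 and 629 CPM (-0.19, -0.24 to -0.14). The other members had log2 ratios of -0.09 to 0.11 at day 9. At the depth of these libraries a difference of 2-fold lay outside the counting interval of every member. The fibroblast markers summed to 533, 573 and 519 CPM over the 3 libraries.

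On dense Matrigel the members were slightly lower than on sparse Matrigel, by about as much as other germ-cell genes. None of the 10 was called in the mesenchymal-like against the epithelial-like library, where 12.5% of all genes were (7.08% at 10 CPM or more). The log2 ratios ran from -0.53 to 0.04 with a median of -0.30 (-0.06 over all genes). They were below 0 for 9 members, against 54.4% of all genes, and the interval lay below 0 for 8 members. Asz1 was at 169 CPM on sparse and 117 CPM on dense Matrigel (-0.53, -0.70 to -0.36). Mael was at 525 and 403 CPM (-0.38, -0.47 to -0.29). Piwil2 was at 468 and 384 CPM (-0.28, -0.38 to -0.19). These 3 genes, with Ddx4, Mov10l1, Tdrd5, Tdrd9 and Gtsf1, were the 8. Tdrd1 was at 171 and 156 CPM (-0.13, -0.28 to 0.03). Piwil4 was at 7.75 and 7.97 CPM from 33 counts in each, and a difference inside its interval of -0.70 to 0.78 was not detectable at this depth.

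The median log2 ratio of the 12 germ-cell reference genes was -0.37 in the same comparison. Relative to it, the members' median was 0.08, with 7 members above and 3 below, so the direction of the pathway turned with this reference. In bulk libraries fewer cells of a type and less RNA per cell cannot be told apart. The fibroblast markers, summing to 588 and 12786 CPM here, were higher where the members were lower. All 20 had counts in both libraries. The differentiating and meiotic markers summed to 528 and 403 CPM, and the part of either list in the result was not tested.

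**Figure D2:**
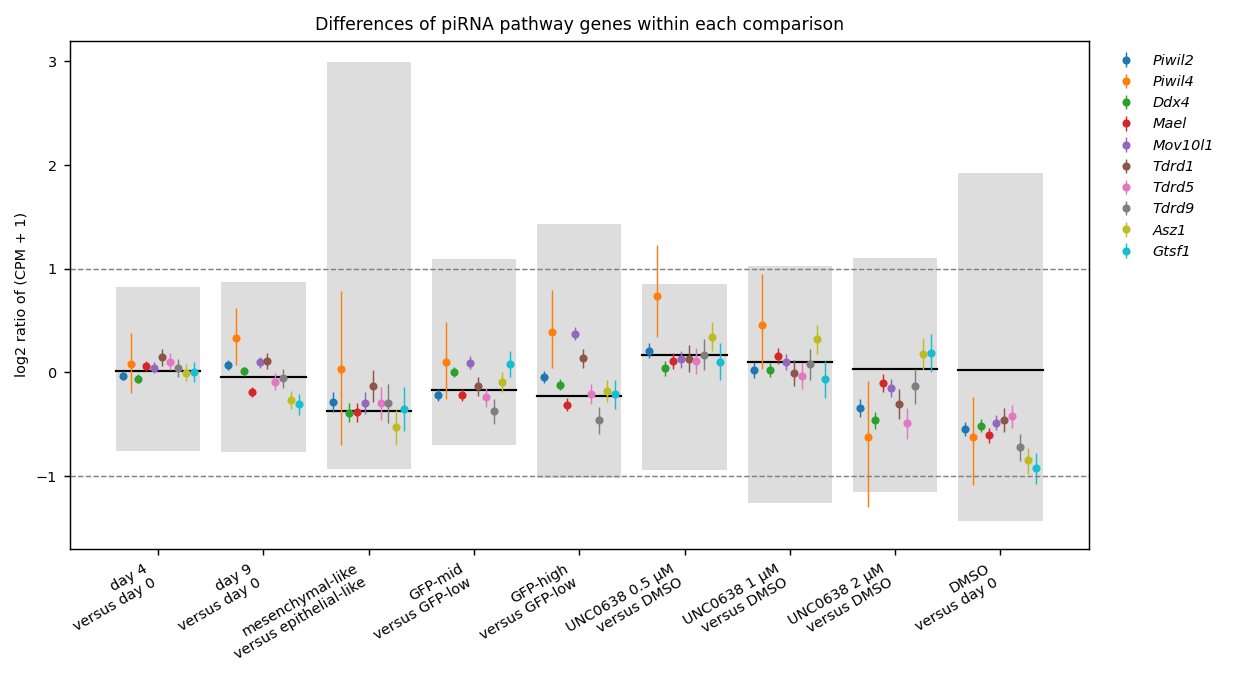
Log2 ratios of (CPM + 1) of the 10 members (coloured points) in 9 comparisons, with 95% Clopper-Pearson intervals of the read split as thin bars; grey boxes span the central 95% of the 14301 tested genes, black lines mark the median of the 12 germ-cell reference genes, and dashed lines mark 2-fold. No member passes 2-fold in any comparison, and in the comparison of DMSO with day 0 all 10 lie below the black line.

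In the sorted fractions some members were higher and some lower in GFP-high than in GFP-low cells. None was called at GFP-mid (4.07% of all genes, 2.92% at 10 CPM or more) or GFP-high (9.54% and 6.48%) against GFP-low. The median log2 ratio was -0.15 at GFP-high (-0.02 over all genes), 0.0047 with the deposited TPM, and 0.08 relative to the germ-cell reference, so the pathway as a whole had no direction that held under every scaling.

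Mov10l1, the helicase of precursor selection, was at 450, 481 and 584 CPM from the low to the high fraction (0.37 at GFP-high, 0.31 to 0.44). Piwil4 was at 12.2, 13.2 and 16.2 CPM (0.39, 0.04 to 0.80). These 2 members followed the order of the labels upward, as did 24.5% of all genes. Tdrd9 was at 132, 102 and 96.0 CPM (-0.46, -0.59 to -0.33). Mael was at 552, 475 and 445 CPM (-0.31, -0.37 to -0.25). With Asz1, at 181, 170 and 160 CPM, they made up the 3 members that followed the order downward, as did 26.9% of all genes. Tdrd1 was lowest in the middle fraction, at 214, 195 and 235 CPM (0.14 at GFP-high, 0.05 to 0.23). Tdrd5 was also lowest there, at 225, 190 and 194 CPM. Piwil2 was at 572, 492 and 554 CPM, and Ddx4 was at 639, 640 and 589 CPM. Gtsf1 was highest in the middle fraction, at 103, 110 and 89.3 CPM.

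The quotient of the 2 helicases' counts within a library does not depend on scaling, though the size of each gene's own difference does: with the deposited TPM the log2 ratios at GFP-high were 0.52 for Mov10l1 and -0.30 for Tdrd9. Mov10l1 counts were 340% of Tdrd9 counts in the GFP-low library (interval 318 to 365), 472% in GFP-mid (444 to 502) and 608% in GFP-high (567 to 653). In the other 9 libraries the same quotient lay between 298% and 357%. The GFP-low value was inside that range and the GFP-mid and GFP-high values were above it, with intervals that overlapped neither each other nor that range. This pair, and the pairs below, were chosen after their values had been seen, so the quotients are descriptions, and a quotient of counts compares libraries, not the levels of the genes. The differentiating and meiotic markers summed to 416, 667 and 732 CPM from the low to the high fraction. The myeloid markers, at 1793, 1585 and 212 CPM, differed mainly between GFP-mid and GFP-high, and all 10 had more than 3 counts in each fraction. The part of either list in these differences was not tested.

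**Figure D3:**
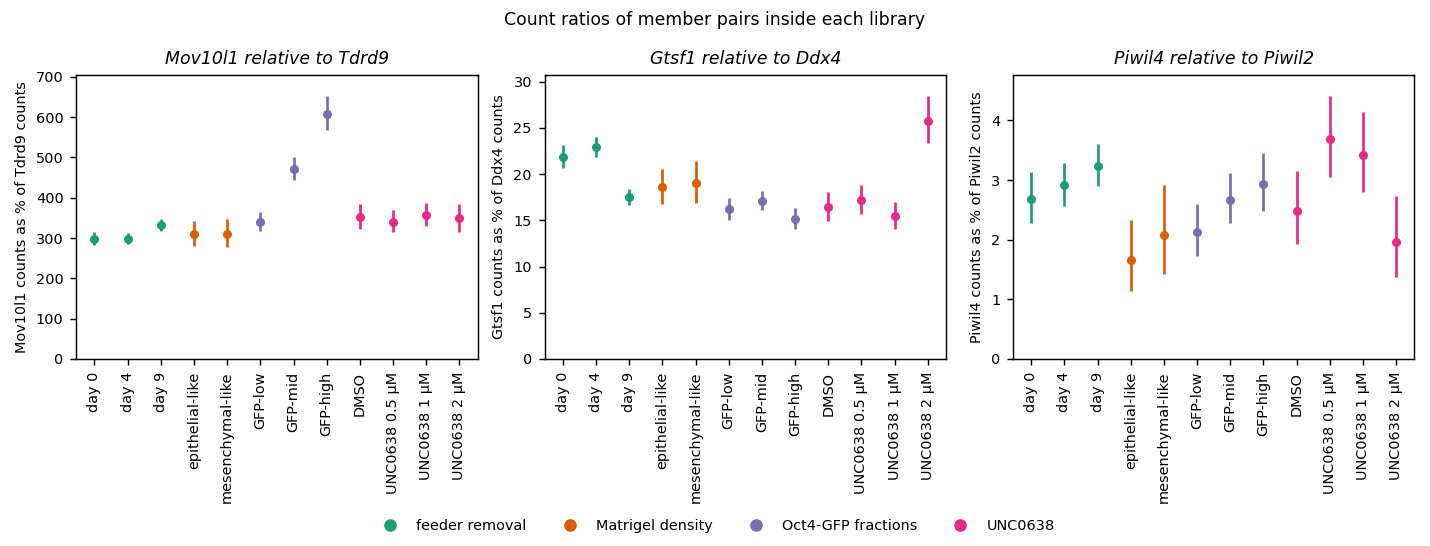
Counts of a member as a percentage of the counts of another member of the same library (linear axes from 0) in the 12 libraries, with 95% Clopper-Pearson intervals. Mov10l1 relative to Tdrd9 is highest in the GFP-mid and GFP-high libraries (472% and 608%), and Gtsf1 relative to Ddx4 is highest with 2 µM UNC0638 (25.8%).

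The members differed by less than 2-fold between the UNC0638 libraries and DMSO, and the direction varied with the dose. None of the members was called at 0.5, 1 or 2 µM UNC0638 against DMSO, where 3.71%, 6.71% and 7.01% of all genes were (1.00%, 3.16% and 2.97% at 10 CPM or more). The 3 ratios share the DMSO library. At 0.5 µM all 10 members were higher than with DMSO (48.1% of all genes were), and the interval lay above 0 for 7. The members' median log2 ratio was 0.13, 0.05 and -0.23 at the 3 doses, against -0.02 over all genes at 2 µM. Relative to the germ-cell reference the medians were -0.03, -0.05 and -0.26, so the positive values at the lower doses turned and the negative one at 2 µM did not.

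Of the 4 libraries, 0.5 µM was the highest for 8 members (20.9% of all genes) and 2 µM the lowest for 8 members (31.2%). Piwil4 had the widest swing, at 13.6, 23.3, 19.0 and 8.48 CPM with DMSO, 0.5, 1 and 2 µM, from 68, 121, 109 and 37 counts. Its log2 ratio was 0.74 at 0.5 µM (0.34 to 1.23) and -0.62 at 2 µM (-1.30 to -0.08). It was the 1 member past 1.5-fold in this experiment, higher at 0.5 µM (6.13% of all genes) and lower at 2 µM (10.7%). Set against Piwil2 counts of the same library, Piwil4 was at 2.48%, 3.68%, 3.42% and 1.97%, and the intervals at 0.5 µM (3.05 to 4.42) and 2 µM (1.38 to 2.72) did not overlap.

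At 2 µM 8 members were lower than with DMSO (51.7% of all genes were), and the interval lay below 0 for 7 of them. Piwil2 was at 547, 633, 556 and 430 CPM (-0.34 at 2 µM, -0.43 to -0.26). Ddx4 was at 605, 623, 615 and 440 CPM (-0.46, -0.54 to -0.38). Tdrd5 was at 196, 211, 191 and 139 CPM (-0.49, -0.64 to -0.34). For all 3 the lower doses stayed near or above DMSO and the 2 µM library stood below the other 3. Tdrd1 was at 192, 210, 191 and 155 CPM (-0.30, -0.45 to -0.16). Mov10l1, Mael and Tdrd9 had log2 ratios of -0.15, -0.10 and -0.13 at 2 µM.

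Asz1 and Gtsf1 differed from the rest at 2 µM. Asz1 was lowest with DMSO, at 144, 184, 180 and 163 CPM (0.35 at 0.5 µM, 0.21 to 0.49, and 0.18 at 2 µM, 0.03 to 0.33). Gtsf1 was highest at 2 µM, at 99.6, 107, 95.1 and 113 CPM (0.19, 0.00 to 0.37). Gtsf1 counts were 16.5% of Ddx4 counts with DMSO, 17.2% and 15.5% at 0.5 and 1 µM and 25.8% at 2 µM (23.3 to 28.5), and 15.2% to 22.9% in the 8 libraries of the other experiments. The 2 µM interval overlapped that of day 4 (21.9 to 24.0) and of no other library. Mael counts were 77.5%, 81.3%, 85.1% and 99.3% of Ddx4 counts in the order of the doses, and the interval at 2 µM (93.1 to 106) overlapped those of both density libraries (96.4% and 96.8%). The fibroblast markers summed to 4481, 1798, 812 and 1047 CPM in the order of the doses, highest with DMSO. The differentiating and meiotic markers summed to 481, 516, 599 and 691 CPM, highest at 2 µM. Within that list Sycp3 went from 117 CPM with DMSO to 210 CPM at 2 µM, and Sycp1 from 218 to 349 CPM. Kit went the other way, from 38.3 to 30.5 CPM, as did Stra8, from 30.5 to 18.3 CPM. The part of either list in these differences was not tested.

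Levels also differed between experiments. The 3 feeder-removal libraries were all above the other 9 for 9 of the 10 members, for 10 of the 22 other pathway genes that passed the filter and for 2 of the 12 germ-cell reference genes, against 14.4% of all tested genes. The mean log2(CPM + 1) of those 3 libraries exceeded that of the other 9 by a median of 0.60 over the members, by 0.45 over the other pathway genes, by 0.06 over the germ-cell reference and by 0.01 over all tested genes. Tdrd9 was at 209 to 224 CPM in the 3 and at 96.0 to 149 CPM in the 9. Gtsf1 was at 153 to 190 CPM in the 3 and at 79.2 to 113 CPM in the 9. Piwil2 was at 782 to 840 CPM in the 3 and at 384 to 633 CPM in the 9. For each of these 3 genes the groups did not overlap. Of the 10 members only Piwil4 overlapped, at 21.4 to 27.2 CPM against 7.75 to 23.3 CPM. The summed differentiating and meiotic markers did not overlap either, at 741 to 907 CPM in the 3 and 403 to 732 CPM in the 9, while the fibroblast markers did, at 519 to 573 and 320 to 12786 CPM. Of genes of the former list, looked at after their values were seen, Sycp3 did not overlap, at 298 to 388 and 96.3 to 211 CPM. Kit, Stra8, Sycp1 and Dmc1 each overlapped. The part of either list in the separation was not tested.

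The day 0 and DMSO libraries belong to different experiments, and both came from cells on MEF without inhibitor. None of the members was called between them (19.4% of all genes were, 15.7% at 10 CPM or more). All 10 were lower with DMSO, against 49.4% of all genes, and all 10 intervals lay below 0. The log2 ratios ran from -0.92 to -0.42 with a median of -0.58, against 0.01 over all genes and 0.02 for the germ-cell reference. At 1.5-fold 5 members were lower (Piwil4, Mael, Tdrd9, Asz1 and Gtsf1), against 18.3% of all genes. Gtsf1 went from 189 CPM on day 0 to 99.6 CPM in DMSO (-0.92, -1.07 to -0.78). Asz1 was at 260 and 144 CPM (-0.85, -0.98 to -0.73). Both differences exceeded any that these genes showed within an experiment. The fibroblast markers summed to 533 CPM at day 0 and 4481 CPM with DMSO, and the differentiating and meiotic markers to 907 and 481 CPM. The part of either list in the difference was not tested. Each experiment held its own conditions, so experiment, batch and culture history cannot be told apart.

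The other genes of the pathway came from a list of 25, of which 23 could be matched and 22 passed the filter. None was called 2-fold at day 4, at day 9, in the density comparison, at GFP-mid or at 0.5 µM UNC0638. At GFP-high 2 were called higher and 1 lower (9.54% of all genes were called), and at 1 µM and at 2 µM 1 was called higher (6.71% and 7.01%). Over the 23 the median log2 ratio was -0.23 in the density comparison, -0.13 at 2 µM and 0.07 at GFP-high, beside -0.30, -0.23 and -0.15 for the members. Between DMSO and day 0, 4 of the 23 were called, all lower (Tdrd7, Dnmt3l, Exd1 and Ddx25), a share near the 19.4% of all genes called. Of the 23, 16 had a log2 ratio below 0 there (49.4% of all genes did), with a median of -0.36 beside -0.58 for the members.

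Dnmt3l, the cofactor of DNA methyltransferases that acts with PIWIL4 in fetal germ cells, was the gene called at 1 and 2 µM. It was at 6.59, 11.2, 14.7 and 17.0 CPM with DMSO, 0.5, 1 and 2 µM. It rose 2-fold or more at 1 µM (1.05, 0.56 to 1.78) and at 2 µM (1.24, 0.75 to 2.00), while Piwil4 was lower at 2 µM. Dnmt3l was also called in the sorted fractions, at 0.50, 1.43 and 3.40 CPM (1.55, 1.26 to 4.72) from 4 counts in the GFP-low library. Tdrd7, a Tudor protein of the chromatoid body, was at 53.8, 85.3 and 123 CPM in the GFP fractions (1.18, 1.03 to 1.36). Nanos2, an RNA-binding factor of undifferentiated spermatogonia, was the gene called lower there, at 26.3, 15.1 and 10.9 CPM (-1.20, -1.62 to -0.92). Tdrd7 was at 183 to 221 CPM in the feeder-removal libraries and at 53.8 to 123 CPM in the other 9.

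Genes for trimming and methylating piRNA ends were present throughout. Pnldc1, the trimmer, was at 66.2 to 128 CPM and Henmt1, the methyltransferase of piRNA ends, at 34.6 to 88.0 CPM. Fkbp6, a co-chaperone of piRNA loading, was at 479 to 1231 TPM. The lowest of the list by TPM included 3 genes best known from meiotic and later germ cells. Piwil1 (MIWI) was at 3.42 to 7.70 TPM, Tdrd6 at 0.08 to 0.60 TPM, and Mybl1 (A-MYB), the activator of pachytene piRNA precursors, at 0.00 to 0.61 TPM, below the filter. Other genes of the list that are known from such cells were higher, with Ddx25 at 91.9 to 349 TPM, Rnf17 at 26.5 to 92.9 TPM and Tdrd7 at 23.7 to 107 TPM.

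**Figure D4:**
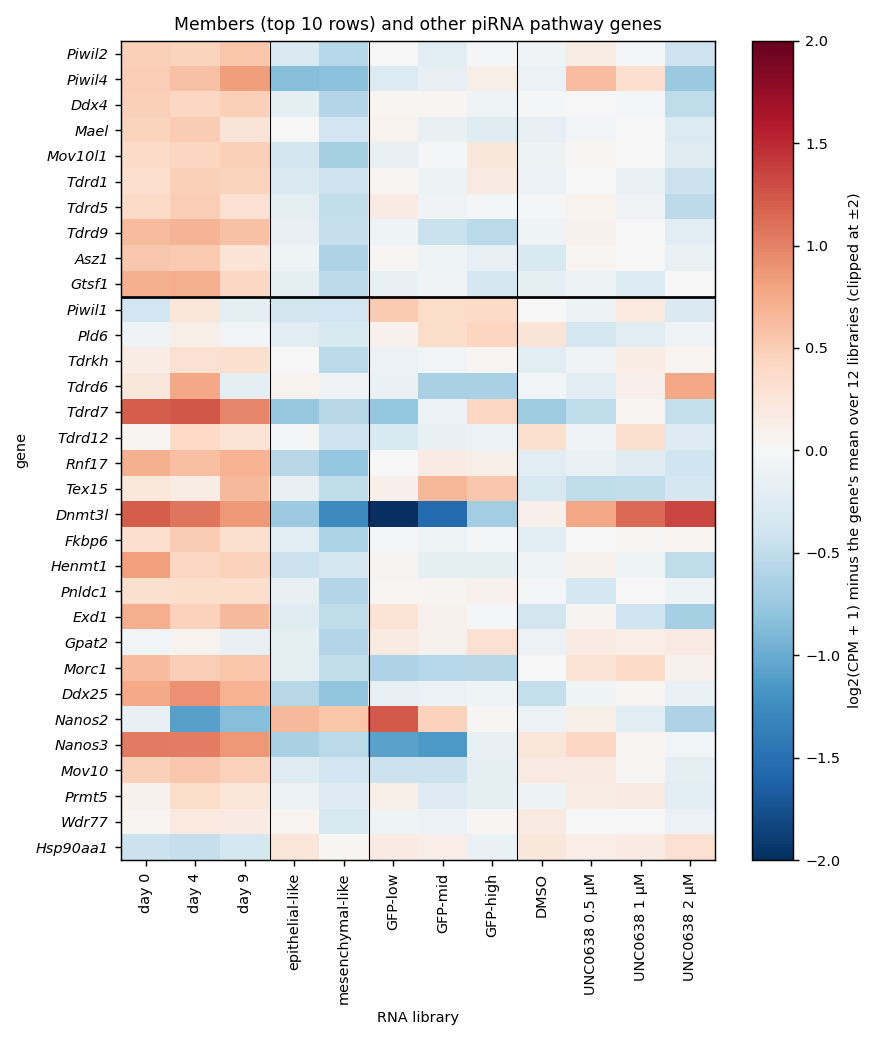
Log2(CPM + 1) of the 10 members (above the black line) and the 22 other piRNA pathway genes that passed the filter, each minus its mean over the 12 libraries, in a colour scale clipped at 2 in either direction. The members are high in the 3 feeder-removal libraries and low in the mesenchymal-like library, and Dnmt3l is higher at each UNC0638 dose than with DMSO.

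Member profiles over the 12 libraries resembled each other. Pearson r of log2(CPM + 1) over the 45 pairs ran from 0.61 to 0.96 with a median of 0.87; these points share 4 experiments, and the level difference between experiments enters every r. The closest pair was Ddx4 with Tdrd5 (0.96), and the most distant was Piwil4 with Gtsf1 (0.61). Mov10l1 was closest to Tdrd1 (0.94) and farthest from Tdrd9 (0.72). Piwil4 was closest to Piwil2 (0.90). Among 9588 other genes whose mean was 10 CPM or more, the 5 whose profile was most like the members' mean were Aifm1 (0.98), Ruvbl1 (0.98), Cdca7l (0.97), Me2 (0.97) and Il13ra1 (0.97), and 2.74% of those genes reached an r of 0.9. Aifm1 was at 261 to 275 CPM in the feeder-removal libraries and lowest, at 135 CPM, in the mesenchymal-like library. Within the pathway Ddx25, Rnf17, Henmt1 and Fkbp6 were above 0.9, and Stk31 (0.96) was the only germ-cell reference gene that was.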

How the data were processed

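RNA was measured in 12 libraries of cultured mouse GSCs prepared with a modified Smart-seq2 procedure, per the labels' protocols; 4 ATAC-seq libraries were not analysed here. The authors deposited a table per library with expected counts (estimated counts per gene, not normalized), TPM and FPKM, per the file headers. RSEM, Trim Galore and the build mm10 are named in the submitters' processing notes; the aligner and annotation release are not given in the sources used here. FPKM, deposited by the authors, was not used.

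Expected counts were rounded, and CPM were computed with TMM factors (edgeR 4.0.16, R 4.3.3) over 4335185 to 12019651 counts per library. Tested genes had 1 CPM or more on average (14301). Differences are log2 ratios of (CPM + 1), which understate changes of low genes, called at 2-fold. Levels carry exact Poisson intervals, ratios Clopper-Pearson intervals without the pseudocount, both at 95% and for counting error only. Both treat each read as independent, which amplified reads are not, so the intervals may be too narrow even for counting error. On simulated counts for 1 µM UNC0638 against DMSO, 197 of 200 genes changed 4-fold were called, and 48 of 14078 unchanged genes. The simulated libraries differed by Poisson counting error only, and genes of low level were left out of the changed ones. These rates therefore do not cover differences between real cultures, preparations or amplifications.

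The members and lists were chosen with earlier results of these data known. Named genes were all members, the list of other pathway genes, and the 5 genes of most similar profile. Germ-cell reference genes were Dazl, Sall4, Zbtb16, Stk31, Lin28a, Dnd1, Taf4b, Dmrt1, Uchl1, Tex101, Sohlh1 and Sohlh2. Alternatives were DESeq2 1.42.0 size factors, total counts, deposited TPM, pseudocounts of 0.1 and 5, other filters, a 1.5-fold threshold, centring on the germ-cell reference and, added after seeing the data, leaving out Gtsf1 and every alternative for the counts, shares and median of DMSO against day 0. Python 3.11.15 with scipy 1.17.1 was used.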

Additional observations from a re-analysis of the deposited data

How the results depend on the processing

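No paired analysis was possible because each RNA group had 1 library. The count of members called 2-fold was 0 in all 9 comparisons under every scaling, unit, pseudocount and centring tried. With a 1.5-fold threshold it was 5 for DMSO against day 0, and 1 each at 0.5 and 2 µM UNC0638. Centring on the germ-cell reference moved the members' median log2 ratio to 0.0758 in the density comparison, 0.0532 at GFP-mid, 0.0809 at GFP-high and -0.0343 at 0.5 µM. The deposited TPM moved it to 0.0047 at GFP-high and 0.0996 at day 9, and total counts moved it to -0.0549 at GFP-high. Of 450 values of single members under other settings, 419 stayed inside the counting interval and 11 had another sign, none of them from a value above 0.12 in size. The share of all genes called 2-fold moved by over 1.5 times with the filter in several comparisons. With a mean of 10 CPM or more it was 0.302% at day 4 (2.28% in the report), 0.875% at day 9 (2.60%), 7.08% in the density comparison (12.5%), and 1.00%, 3.16% and 2.97% at 0.5, 1 and 2 µM (3.71%, 6.71% and 7.01%). Without a filter it was 1.73% at day 9, 7.90% in the density comparison, 2.37% at GFP-mid (4.07%), 5.77% at GFP-high (9.54%), 4.29% at 1 µM, 4.56% at 2 µM and 11.3% for DMSO against day 0 (19.4%). With Spearman correlation 2 of the 5 most similar genes were shared. Depth limits Piwil4 most.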

Other observations

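The genes named here come from the list of differentiating and meiotic germ-cell markers and were singled out after their values were seen. Sycp3, a protein of the meiotic chromosome axis, was at 298 to 388 CPM in the feeder-removal libraries and at 96.3 to 211 CPM in the other 9, a separation that 14.4% of all tested genes showed. Kit, Stra8, Sycp1 and Dmc1 of the same list did not separate in this way. Sycp3 was at 117, 159, 211 and 210 CPM with DMSO, 0.5, 1 and 2 µM UNC0638. Sycp1, a protein of the central region of the synaptonemal complex, was at 218, 209, 255 and 349 CPM. Stra8, a retinoic acid target at meiotic entry, was at 30.5, 12.7, 17.5 and 18.3 CPM.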
